A study of Mus musculus with 19 samples.

Results

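Htt, the gene that carries the CAG repeat of Huntington's disease, and 7 genes that encode known binding partners of its protein were followed in the striatum of mice with 4 Htt genotypes. The 8 genes (Htt, Hap1, Hip1, Hip1r, Pacsin1, Zdhhc17, Sh3gl3 and Optn) were chosen by name from the 54232 gene identifiers of the count matrix. All 8 passed the filter on low counts that left 18521 genes to be tested. Striatal RNA of 7 WT mice and of 4 mice each of the genotypes KI-96, KI-571 and KI-FL was sequenced, each mouse on the C57/BL/6 background and 6 months old. KI-FL mice carried the HD140Q knock-in allele, from which full-length mutant HTT with an expanded polyglutamine (polyQ) tract is expressed. KI-96 and KI-571 mice carried the same allele with a CRISPR-Cas9 truncation in exon 2 or exon 13, so that an N-terminal fragment is made from it. All KI mice were heterozygous and kept a WT allele, KI-FL mice included. A read count per gene does not separate the alleles. The study obtained a single founder for KI-571 and several for KI-96, and which founder each KI-96 mouse came from is not given in the sources used here.

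HTT is a very large scaffold protein that is made in most cells and binds many proteins of vesicle transport, endocytosis, palmitoylation, autophagy and transcription. Its polyQ tract near the N-terminus is encoded by the CAG repeat of exon 1, and the projection neurons of the striatum are the cells most affected when the tract is expanded. Several of the partners were first found as proteins whose binding to HTT changes with the length of the tract.

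Htt (ENSMUSG00000029104.15) lies on the plus strand of chromosome 5 of GRCm38 at chr5:34761740-34912534, and its coding transcript has 67 exons. The 3 stretches of coding sequence that the genotypes differ in are shown from the reference transcript, with the polyglutamine codons of exon 1 in capitals and, in exons 2 and 13, the bases of the codon whose number names the genotype in capitals. Codons are counted in the mouse reference, whose tract is short, and none of the KI alleles was read from these data.
Htt exon 1, coding part, chr5:34761907-34762109: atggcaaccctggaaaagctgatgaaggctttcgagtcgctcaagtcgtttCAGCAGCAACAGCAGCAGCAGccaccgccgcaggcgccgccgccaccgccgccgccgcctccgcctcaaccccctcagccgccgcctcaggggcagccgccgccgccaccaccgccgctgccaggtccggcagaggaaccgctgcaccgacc
Htt exon 2, chr5:34782742-34782825: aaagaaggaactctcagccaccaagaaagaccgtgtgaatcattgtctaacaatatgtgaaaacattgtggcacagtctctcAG
Htt exon 13, chr5:34817143-34817269: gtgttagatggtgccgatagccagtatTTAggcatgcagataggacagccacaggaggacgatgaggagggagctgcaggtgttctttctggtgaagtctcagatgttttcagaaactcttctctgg
The reference tract holds 7 glutamine codons, 6 of them CAG and 1 CAA, starts at codon 18 and is followed by proline codons, of which the longest run in exon 1 counts 10. Exon 2 ends inside codon 96 and exon 13 spans codons 562 to 604, so that the genotype names KI-96 and KI-571 point to these exons.

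The libraries held between 12669809 and 26388542 reads on genes (median 18202412). Every member was well covered, with 81 to 415 counts per mouse for Optn, the lowest, and 1935 to 4861 for Htt. Levels are given as CPM, the counts relative to the TMM-scaled library size. Depending on the library, 3 counts, taken as the floor, were worth 0.114 to 0.237 CPM, which covers counting error only. The 12 markers of striatal projection neurons, such as Drd1 and Ppp1r1b, summed to 5548 to 9386 CPM and were detected in every genotype. In 2 libraries other properties stood apart. KI-FL replicate 4 had 3186 of the tested genes at 0 counts, against 10 to 222 in the other 18 mice. KI-96 replicate 3 had the highest length index, 1.62, which is the mean log2 CPM of 4065 tested genes with over 6000 exon bases minus that of 1586 genes with under 2500, both with a mean log2 CPM of at least 3. In the other 18 mice the index was 0.61 to 0.95. The 6 choroid plexus markers summed to 5109 CPM in KI-571 replicate 2, 5360 in KI-571 replicate 4 and 3037 in KI-FL replicate 1, against 36.4 to 410 CPM in the other 16 mice. High Xist was found in 1 WT mouse, 1 KI-FL mouse and every one of the 4 KI-96 mice, so that genotype and sex cannot be told apart for KI-96 mice.

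Within WT mice the members spanned a wide range of levels per length. Per kilobase of the coding transcript, Pacsin1 was at 74.9 ± 10.5 CPM per kb (SD, n = 7), Hap1 at 58.1 ± 13.7, Sh3gl3 at 35.7 ± 2.51 and Zdhhc17 at 33.5 ± 1.68. Lower levels per length were found for Hip1r (16.4 ± 1.58 CPM per kb), Htt (13.5 ± 0.74), Hip1 (9.40 ± 0.94) and Optn (5.60 ± 0.78). Htt therefore ranked sixth of the 8 members per length. The ranges of neighbouring genes in this order overlapped for Pacsin1 and Hap1, Hap1 and Sh3gl3, Sh3gl3 and Zdhhc17, and Hip1r and Htt. They did not overlap for Zdhhc17 over Hip1r, Htt over Hip1 and Hip1 over Optn. When the length of all annotated exons was used instead, Sh3gl3 moved from the third to the fifth place and the lowest 3 places were unchanged. The spread between WT mice differed as well. Htt and Zdhhc17 were among the steadiest genes, with an SD of log2 CPM of 0.078 and 0.072 that only 4.81% and 3.44% of tested genes undercut. Hap1, in contrast, varied more than 72.5% of tested genes did (SD 0.37). By level Htt, Zdhhc17 and Hap1 lay above 93.2%, 91.9% and 93.9% of tested genes, and the SD was not compared among genes of like level.

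**Figure D1:**
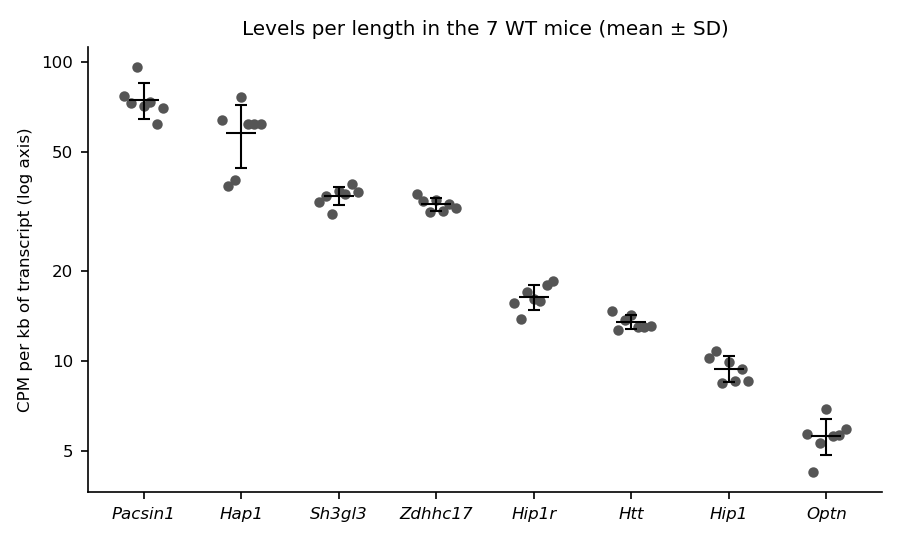
Level of each member per kilobase of its coding transcript in the 7 WT mice, in CPM per kb on a log axis, with points for single mice and bars for mean ± SD. Pacsin1 at 74.9 and Optn at 5.60 CPM per kb mark the ends of the order.

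Htt had its lowest mean in KI-571 mice, whose values overlapped those of KI-FL mice. It was at 168 CPM in the lowest, 173 in the median and 195 in the highest of the 7 WT mice. In KI-571 mice Htt was at 141, 124, 127 and 104 CPM in replicates 1 to 4. In KI-FL mice it was at 160, 155, 179 and 137 CPM, and in KI-96 mice at 176, 184, 240 and 143 CPM. All 4 KI-571 mice thus lay below every WT mouse and also below every KI-96 mouse, while 3 of 4 KI-FL mice lay below the WT range and the KI-96 mice lay on both sides of it. KI-571 mice had a mean of 124 ± 15.3 CPM (SD, n = 4), 69.4% of the WT mean of 178 ± 9.80 CPM (SD, n = 7). The KI-FL mean was 158 ± 17.5 CPM (SD, n = 4), or 88.4% of WT, and the KI-96 mean 186 ± 40.1 CPM (SD, n = 4), or 104% of WT.

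Against WT mice, the KI-571 mice had a log2 fold change of Htt of -0.53 with a standard error of 0.11 and a 95% confidence interval of -0.76 to -0.29. Its p of 0.0959 after Benjamini-Hochberg adjustment over all tested genes (quasi-likelihood test of edgeR) did not pass 0.05. By unadjusted p (0.000139) Htt ranked 24th of the 18521 genes, and 6 genes (0.0324%) passed in this comparison. The groups did not overlap, which was so for 124 genes that were lower in KI-571 mice (0.67% of those tested). An exact permutation test (two-sided, on log2 CPM, 330 splits) gave p = 0.00303, the smallest that 4 mice against 7 allow. After adjustment over all genes it was 0.265. With such a limit the adjusted value depends on how many other genes reach it, so it cannot decide on Htt alone. The call depended on the model, since the adjusted p of Htt was 0.00811 with DESeq2, 0.0229 in edgeR with no filter on low counts and 0.0282 in edgeR with only these 2 genotypes fitted. With DESeq2 115 of 18521 genes passed in this comparison, and with no filter 78 of 36846.

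Since the striatum was taken as a whole, fewer cells that express a gene and less RNA per cell cannot be told apart. The choroid plexus markers were high in KI-571 replicates 2 and 4 (Htt at 124 and 104 CPM) and summed to 203 and 47.1 CPM in KI-571 replicates 1 and 3 (Htt at 141 and 127 CPM). Without KI-571 replicates 2 and 4 and KI-FL replicate 1 the log2 fold change was -0.42 (edgeR adjusted p = 0.524), and the part of choroid plexus tissue in the result was not tested. The length index lay between 0.67 and 0.68 in KI-571 replicates 2 to 4 and was 0.95 in replicate 1, against 0.71 to 0.93 in WT mice. With the index as a covariate the log2 fold change of Htt was -0.48 (edgeR adjusted p = 0.0271). The 5 red cell markers also moved with the KI-571 genotype: 2 of the 5 were higher in edgeR after adjustment, and their sums were 163 to 483 CPM against 79.5 to 214 CPM in WT mice. Their part in the result was not tested.

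**Figure D2:**
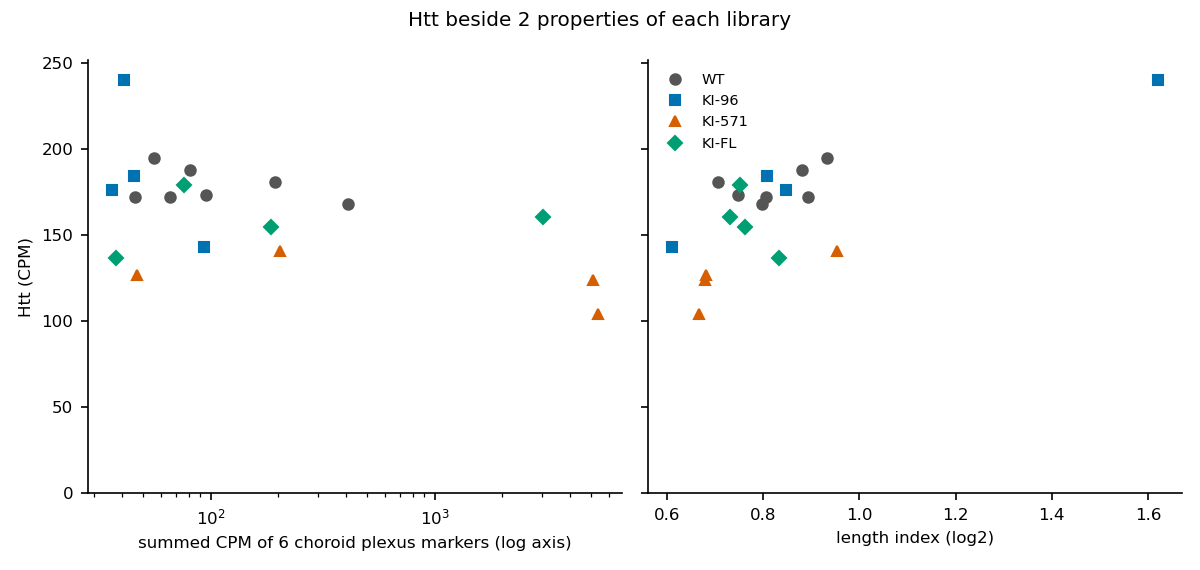
Htt in CPM in each mouse against the summed CPM of 6 choroid plexus markers (left, log axis) and against the length index in log2 units (right), with a symbol for each genotype. KI-571 mice lie between 104 and 141 CPM of Htt at marker sums from 47.1 to 5360 CPM, and KI-96 replicate 3, at 240 CPM of Htt, has the highest length index.

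Against the other KI genotypes, Htt showed the largest difference between KI-96 and KI-571 mice, with a log2 fold change of 0.59 (standard error 0.13, 95% confidence interval 0.32 to 0.85, edgeR adjusted p = 0.234). Every KI-96 mouse was higher, which was so for 286 genes (1.54%), and 1 gene (0.0054%) passed the adjusted threshold in this comparison. The exact permutation p was 0.0286, the smallest that 4 mice against 4 allow over 70 splits, and 0.997 after adjustment over all genes. No gene could pass after adjustment here unless most genes reached this limit, so the adjusted value decides nothing. With DESeq2 the adjusted p was 0.0167, and in edgeR with no such filter for low counts it was 0.0489. In these fits 35 of 18521 and 35 of 36846 genes passed. Every KI-96 mouse but no KI-571 mouse was high in Xist, so that genotype and sex cannot be told apart in this comparison. The lowest KI-96 mouse (143 CPM) and the highest KI-571 mouse (141 CPM) differed little. Between KI-571 and KI-FL mice the log2 fold change was -0.35 (95% confidence interval -0.61 to -0.086, edgeR adjusted p = 0.439) and between KI-96 and KI-FL mice 0.24 (95% confidence interval -0.025 to 0.50, edgeR adjusted p = 0.599). The last value was 0.099 without KI-96 replicate 3.

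Between KI-FL and WT mice Htt had a log2 fold change of -0.18 (standard error 0.11, 95% confidence interval -0.41 to 0.056, edgeR adjusted p = 0.431), and there were 36 genes (0.194%) passing in this comparison. The exact permutation test gave p = 0.0182 for it, or 0.143 after adjustment over all genes. Without KI-FL replicate 4 the log2 fold change was -0.12. For KI-96 mice the log2 fold change was 0.059 (standard error 0.11, 95% confidence interval -0.17 to 0.29, edgeR adjusted p = 0.942), with 5 genes (0.027%) passing. Its sign rested on KI-96 replicate 3, the mouse with the highest Htt and the highest length index. Without this mouse it was -0.091, without KI-96 replicate 4 it was 0.16, and with the length index as a covariate -0.057. With all KI mice set against WT mice, the log2 fold change of Htt was -0.22 (standard error 0.084, edgeR adjusted p = 0.291), and 10 genes (0.054%) passed.

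The genes beside Htt on chromosome 5 were measured in the same libraries. Upstream, Grk4, a G protein-coupled receptor kinase gene on the same strand, ends 6434 bases before Htt and was expressed at a low level, 3.33 ± 0.57 CPM (SD, n = 7) in WT mice. Among KI-571 mice the mean of Grk4 was 5.39 ± 0.95 CPM (SD, n = 4), and its lowest value of 4.46 CPM lay above the highest WT value of 4.04 CPM, as for 163 genes (0.88%) that were higher without overlap. Its log2 fold change there was 0.69 (edgeR adjusted p = 0.446), and it was 0.93 in KI-FL mice (edgeR adjusted p = 0.0995) and 0.51 in KI-96 mice (edgeR adjusted p = 0.680). In KI-FL mice Grk4 reached 11.6 CPM in 1 mouse, the mouse with 3186 tested genes at 0 counts. Nop14, a ribosome biogenesis gene further upstream, and Rgs12, a regulator of G protein signalling 36910 bases downstream of Htt, had log2 fold changes of 0.032 and 0.20 in KI-571 mice against WT mice (edgeR adjusted p = 0.995 and 0.856). The next downstream gene, Hgfac, had at most 18 counts in any mouse and did not pass the filter on low counts. Msantd1 overlaps the 3′ end of the Htt gene on the same strand without sharing exon bases, and was at 4.29 CPM in WT and 3.71 CPM in KI-571 mice.

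**Figure D3:**
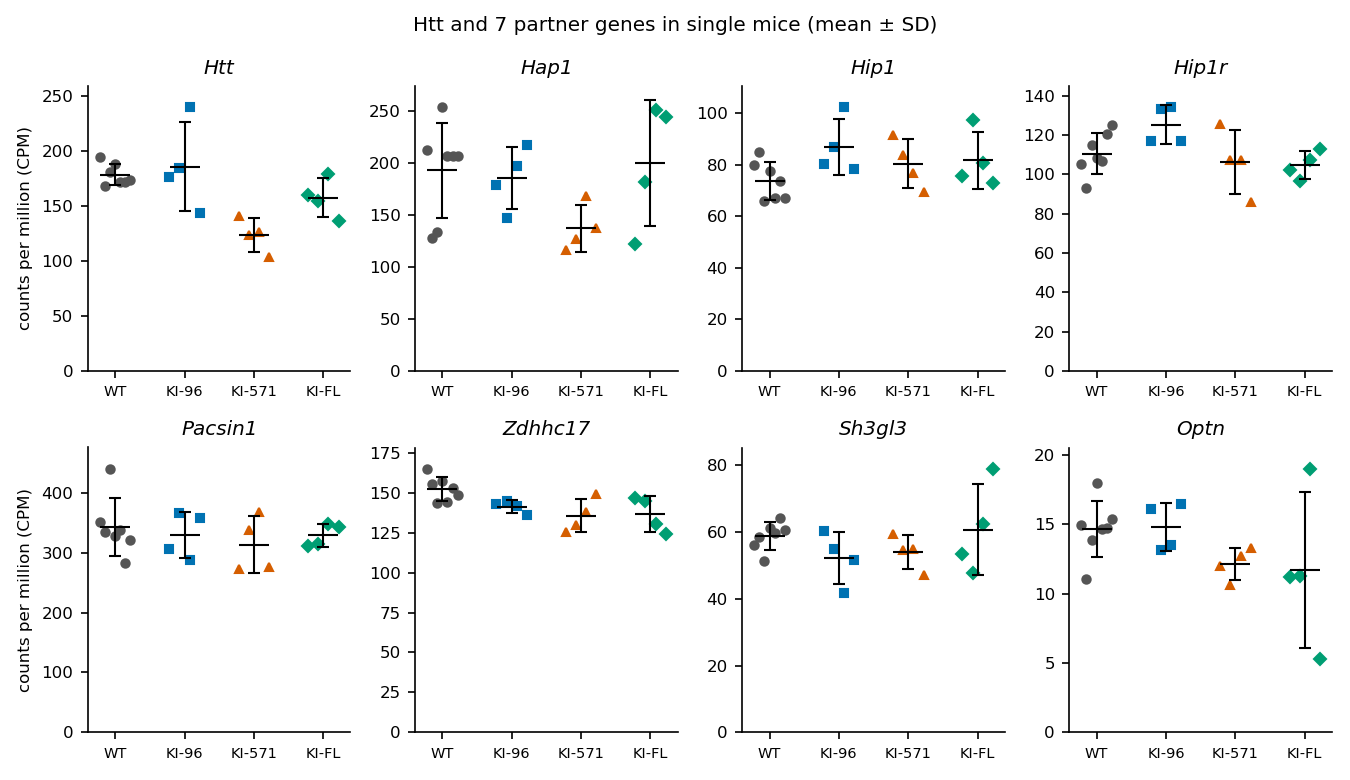
CPM of Htt and its 7 partners in each of the 19 mice, with points for mice and black bars for mean ± SD of each genotype. Only for Htt do the KI-571 mice (104 to 141 CPM) lie wholly below the WT mice (168 to 195 CPM), and Zdhhc17 has a lower mean in each KI genotype than in WT.

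None of the 7 partners passed the adjusted threshold in edgeR in any of the 7 comparisons. The smallest adjusted p of a partner was 0.649 in KI-96, 0.496 in KI-571 and 0.291 in KI-FL mice against WT mice. At an unadjusted p under 0.05, edgeR found 1 partner in KI-96 mice (Hip1, higher), 2 in KI-571 mice (Hap1 and Zdhhc17, lower) and 1 in KI-FL mice (Zdhhc17, lower), where 7.45%, 7.72% and 16.7% of all tested genes had such a p in either direction. Between the KI genotypes it found Hip1r higher in KI-96 than in KI-FL mice (8.9% of all genes), Htt and Hap1 lower in KI-571 than in KI-FL mice (8.9%, with 16 genes or 0.0864% past the adjusted threshold) and Htt and Hip1r higher in KI-96 than in KI-571 mice (5.51%). With DESeq2 none of the partners passed the adjusted threshold either. For a single KI genotype against WT, the 95% confidence intervals reached 0.155 log2 units to either side of the estimate for the most precise member, Zdhhc17, and up to 0.437 for the least precise, Optn, and between KI genotypes they were wider, up to 0.490. The 3 comparisons with WT share the WT mice, and those between KI genotypes share the KI mice with them.

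**Figure D4:**
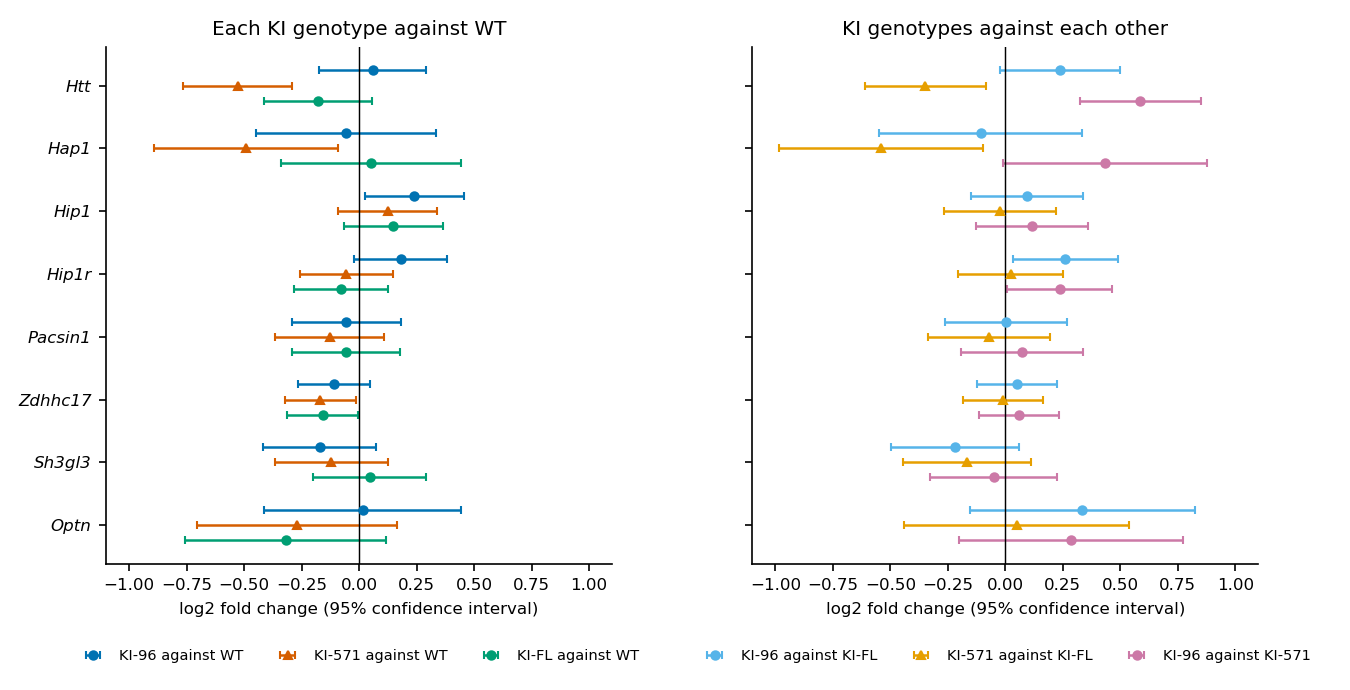
Log2 fold change of each member with its 95% confidence interval from edgeR, for each KI genotype against WT (left) and for the KI genotypes against each other (right). The Htt interval of KI-571 against WT runs from -0.76 to -0.29, and most intervals of the partners include 0.

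Hap1 encodes huntingtin-associated protein 1, an adaptor between HTT and the dynein and kinesin motors that carry vesicles along microtubules. Hap1 (ENSMUSG00000006930.15, chr11:100347327-100356128) was at 128 CPM in the lowest, 207 in the median and 253 in the highest WT mouse. It was at 116, 127, 168 and 137 CPM in KI-571 mice, at 178, 147, 197 and 218 CPM in KI-96 mice and at 122, 181, 251 and 244 CPM in KI-FL mice. The KI-571 mice lay at the lower end, but 2 WT mice lay there as well. The mean of KI-571 mice was 137 ± 22.6 CPM (SD, n = 4), 71.2% of the WT mean of 193 ± 45.3 CPM (SD, n = 7). The log2 fold change was -0.49 with a standard error of 0.19 (unadjusted p = 0.0182, edgeR adjusted p = 0.496). For KI-96 against WT it was -0.057 (95% confidence interval -0.45 to 0.34) and for KI-FL against WT 0.050 (95% confidence interval -0.34 to 0.44), and leaving out single mice turned the sign of both.

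Hap1 is known for high expression in the hypothalamus and septum, next to the striatum. The 11 markers of the hypothalamus, septum and preoptic area summed to 35.9 and 34.9 CPM in WT replicates 2 and 3, the WT mice with the lowest Hap1 (128 and 134 CPM), and to 45.0 to 60.3 CPM in the other 5 WT mice, in which Hap1 was at 207 to 253 CPM. In KI-571 mice these markers summed to 34.9 to 50.1 CPM, with 1 of the 11 at 0 counts in every mouse. In KI-FL mice, with Hap1 at 122 to 251 CPM, they summed to 37.3 to 53.3 CPM, with 2 of the 11 at 0 counts in every mouse. In KI-96 mice they summed to 37.8 to 63.3 CPM, and replicate 3, with the lowest sum, had Hap1 at 197 CPM. The choroid plexus markers were highest among WT mice in the same WT replicates 2 and 3 (410 and 194 CPM, against 46.1 to 95.5 CPM in the other 5), and were high in KI-571 replicates 2 and 4 and KI-FL replicate 1, in which Hap1 was at 127, 137 and 122 CPM. They summed to 203 CPM in KI-571 replicate 1 and 187 CPM in KI-FL replicate 2, in which Hap1 was at 116 and 181 CPM. Without KI-571 replicates 2 and 4 and KI-FL replicate 1 the log2 fold change of Hap1 between KI-571 and WT mice was -0.44 (edgeR adjusted p = 0.708). The part of these tissues in the level of Hap1 was not tested.

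Hip1 and Hip1r encode relatives that join clathrin-coated vesicles to the actin cytoskeleton, and Hip1 was named as a huntingtin-interacting protein. Hip1 (ENSMUSG00000039959.13, chr5:135406531-135545120) was at 65.9, 73.6 and 84.8 CPM in the lowest, median and highest WT mouse. It was at 80.4, 87.1, 102 and 78.4 CPM in KI-96 mice, 91.5, 83.8, 76.7 and 69.3 CPM in KI-571 mice, and 75.7, 97.3, 80.6 and 73.0 CPM in KI-FL mice. Its mean was above that of WT mice in each KI genotype, but the groups overlapped. Its log2 fold change was 0.24 in KI-96 mice (standard error 0.10, unadjusted p = 0.0292, edgeR adjusted p = 0.649). It was 0.12 in KI-571 mice (edgeR adjusted p = 0.890) and 0.15 in KI-FL mice (edgeR adjusted p = 0.479). Single mice weighed on these values, which were 0.15 without KI-96 replicate 3, 0.054 without KI-571 replicate 1, 0.19 without KI-571 replicate 4 and 0.053 without KI-FL replicate 2. For all KI mice against WT mice it was 0.17, with a standard error of 0.079 (unadjusted p = 0.0420, edgeR adjusted p = 0.372), in a comparison in which 12.9% of tested genes had an unadjusted p under 0.05.

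Hip1r (ENSMUSG00000000915.15, chr5:123973628-124005558) was at 93.2, 108 and 125 CPM in the lowest, median and highest WT mouse. In KI-96 mice it was at 117, 133, 134 and 117 CPM, and in KI-FL mice at 102, 96.4, 107 and 113 CPM. Each KI-96 mouse thus had more Hip1r than each KI-FL mouse, which held for 354 genes (1.91%), and no gene (0%) passed the adjusted threshold in this comparison in edgeR, although 1648 had an unadjusted p under 0.05 and 38 passed with DESeq2. The log2 fold change between them was 0.26 (standard error 0.11, edgeR adjusted p = 0.529), and the exact permutation p was 0.0286, or 0.905 after adjustment over all genes. KI-571 mice, at 125, 107, 107 and 85.8 CPM, spread from within the KI-96 values to below the lowest KI-FL mouse. Against WT mice the log2 fold change of Hip1r was 0.18 in KI-96, -0.055 in KI-571 and -0.079 in KI-FL mice (edgeR adjusted p = 0.702, 0.971 and 0.704). The 3′ end of Hip1r overlaps exons of Vps37b on the opposite strand, and the strand setting of the counting is not given in the sources used here. Vps37b held 5005 counts over the 19 mice.

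Pacsin1 and Sh3gl3 encode BAR domain proteins that bend membranes during endocytosis. Pacsin1, also called syndapin I, is found mainly in neurons, and Sh3gl3 encodes endophilin A3, which was found to bind the mutant N-terminal fragment of HTT. Pacsin1 (ENSMUSG00000040276.15, chr17:27655509-27711482) was at 283, 335 and 440 CPM in the lowest, median and highest WT mouse. KI mice of all genotypes lay between 272 and 368 CPM. The log2 fold change of Pacsin1 was -0.056 in KI-96, -0.13 in KI-571 and -0.057 in KI-FL mice against WT mice, and the intervals reached from -0.36 at the lowest to 0.18 at the highest. The highest WT mouse, replicate 3, also had the highest sum of the 6 cortical excitatory neuron markers, 1019 CPM, against 410 CPM in KI-571 replicate 2 and 11.5 to 116 CPM in the other 17 mice. Without WT replicate 3 the fold changes of Pacsin1 were 0.013, -0.058 and 0.0035 in log2 units. The KI-571 value ranged from -0.21 without KI-571 replicate 3 to -0.058, and was -0.068 without KI-571 replicate 1 and -0.071 without KI-571 replicate 4. The part of cortical tissue in the level of Pacsin1 was not tested.

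Sh3gl3 (ENSMUSG00000030638.13, chr7:82173840-82307419) was at 51.3, 59.6 and 64.2 CPM in the lowest, median and highest WT mouse. In KI-FL mice it was at 53.5, 47.7, 62.4 and 79.0 CPM, and the highest of these was replicate 4. It was at 60.5, 54.9, 41.8 and 51.7 CPM in KI-96 mice and at 59.5, 54.6, 55.1 and 47.0 CPM in KI-571 mice. The log2 fold change of Sh3gl3 was -0.17 in KI-96, -0.12 in KI-571 and 0.046 in KI-FL mice against WT mice (edgeR adjusted p = 0.770, 0.932 and 0.864). The KI-96 value was -0.082 without KI-96 replicate 3, the KI-571 value -0.060 without KI-571 replicate 4 and the KI-FL value -0.11 without KI-FL replicate 4.

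Zdhhc17 encodes HIP14, a palmitoyl acyltransferase that attaches palmitate to HTT and to synaptic proteins such as SNAP25 and PSD-95. Zdhhc17 (ENSMUSG00000035798.14, chr10:110941780-111010140) was at 144 CPM in the lowest, 153 in the median and 165 in the highest WT mouse. In KI-96 mice it was at 143, 145, 142 and 136 CPM. It was at 125, 130, 138 and 149 CPM in KI-571 mice and at 147, 145, 131 and 124 CPM in KI-FL mice. All but 4 of the 12 KI mice lay below the WT range, and those 4 lay within it. Its mean was 92.7% of the WT mean in KI-96, 89.0% in KI-571 and 89.6% in KI-FL mice. In log2 units this was -0.11, -0.17 and -0.16 (standard error 0.075 each, edgeR adjusted p = 0.769, 0.579 and 0.291). For all KI mice against WT mice it was -0.15 with a standard error of 0.056 (unadjusted p = 0.0168, edgeR adjusted p = 0.280), the smallest adjusted p of any member in this comparison. The exact permutation p was 0.0212 in KI-96, 0.0152 in KI-571 and 0.0212 in KI-FL mice, and 0.422, 0.339 and 0.152 after adjustment over all genes. Among the KI genotypes Zdhhc17 differed by at most 0.059 log2 units, with intervals between -0.18 and 0.23.

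Optn encodes optineurin, an autophagy receptor that links HTT to the small GTPase Rab8 and to myosin VI. Optn (ENSMUSG00000026672.11, chr2:5020642-5064051) was the lowest member, at 11.1, 14.7 and 17.96 CPM in the lowest, median and highest WT mouse. It was at 16.1, 13.1, 13.5 and 16.5 CPM in KI-96 mice and at 12.01, 10.6, 12.7 and 13.3 CPM in KI-571 mice. In KI-FL mice it was at 11.2, 11.2, 19.004 and 5.29 CPM, so that the highest and the lowest mouse of the series both belonged to this genotype. The lowest, KI-FL replicate 4, was the mouse with 3186 tested genes at 0 counts. The log2 fold change of Optn was 0.015 in KI-96, -0.27 in KI-571 and -0.32 in KI-FL mice against WT mice (edgeR adjusted p = 0.992, 0.874 and 0.450), with intervals as wide as -0.76 to 0.12. The KI-FL value was -0.078 without KI-FL replicate 4 (edgeR adjusted p = 0.872) and -0.67 without KI-FL replicate 3 (edgeR adjusted p = 0.118).

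Over the 8 members, 7 had a lower estimate in KI-571 than in WT mice, against 5 in KI-FL and 4 in KI-96 mice. Of all tested genes, 51.7%, 53.9% and 52.8% had a lower estimate in these comparisons. The median log2 fold change of the members was -0.15, -0.068 and -0.020 in these comparisons, beside -0.0089, -0.028 and -0.015 over all tested genes.

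Htt and its partners were also set beside each other in each of the 19 mice. Pearson's r of log2 CPM with Htt was 0.51 for Hip1r, 0.39 for Zdhhc17, 0.39 for Optn, 0.36 for Hap1, 0.26 for Hip1, 0.13 for Pacsin1 and -0.082 for Sh3gl3, beside a median of 0.039 over the 18520 other tested genes. Permutation p-values (two-sided, 100000 permutations) were 0.0248 for Hip1r and 0.0962 or more for the others, and after adjustment over all genes the smallest was 0.273. Without adjustment 14.6% of all genes had a permutation p under 0.05, and 4 genes (0.0216%) passed after it. Spearman's rho was 0.56 for Optn (permutation p = 0.0126, adjusted 0.362) and 0.38 for Hip1r (permutation p = 0.114, adjusted 0.570). By rho 0 of all genes passed after adjustment. With 100000 permutations p cannot fall below 1e-05, so these counts of passing genes can depend on the number of permutations. The relation of Hip1r to Htt rested on the 2 mice farthest from the median of Htt, KI-571 replicate 4 and KI-96 replicate 3, since r was 0.086 without them. Without the same mice r was 0.71 for Zdhhc17, 0.56 for Optn, 0.28 for Hap1, 0.10 for Pacsin1, -0.0032 for Sh3gl3 and -0.21 for Hip1.

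Genotype differences enter these values, so they were also computed from the deviations of each mouse from its genotype mean. Within genotypes r with Htt was 0.61 for Hip1 (permutation p = 0.0168, adjusted over all genes 0.174) and 0.46 for Hip1r (permutation p = 0.0543, adjusted 0.281), where 18.4% of all genes had a permutation p under 0.05. It was 0.0083 for Zdhhc17, -0.022 for Hap1 and -0.14 for Pacsin1. The relation of Zdhhc17 to Htt thus did not hold within genotypes. Of all genes, 127 passed after adjustment within genotypes. KI-96 replicate 3 had the highest level of Htt, Hip1 and Hip1r of all mice (240, 102 and 134 CPM). The part of this mouse in the values within genotypes was not tested.

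**Figure D5:**
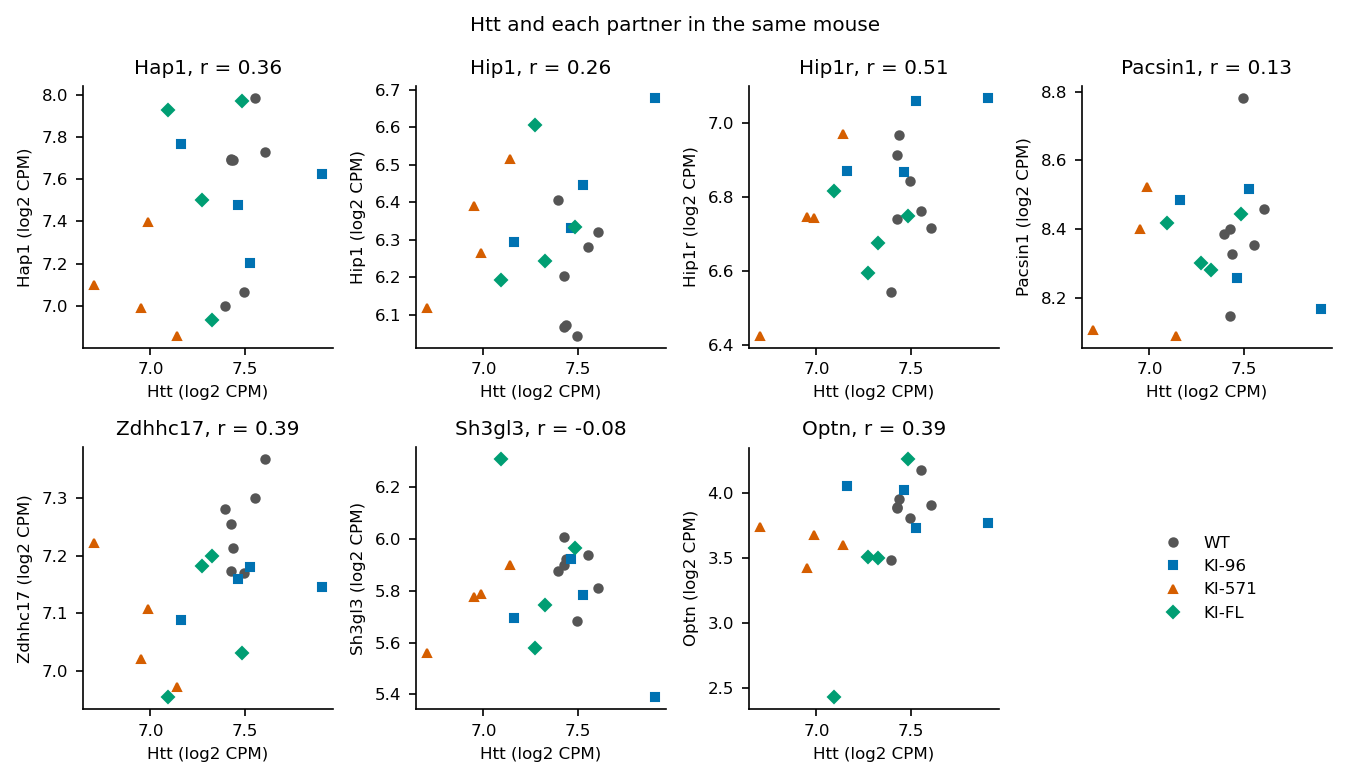
Log2 CPM of each partner against log2 CPM of Htt in the same mouse, for all 19 mice, with a symbol for each genotype and Pearson's r in each panel title. KI-571 mice lie toward the left in every panel, with KI-FL replicate 4 among them, and KI-96 replicate 3 is the point farthest to the right.

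The tested genes whose level followed that of Htt most closely over the 19 mice were Ank2, which encodes the membrane adaptor ankyrin-B (r = 0.85), Epg5, an autophagy gene (r = 0.84), and Arhgef11, a guanine nucleotide exchange factor gene (r = 0.83). The permutation p adjusted over all genes was 0.0641 for Ank2 and Epg5 and 0.0463 for Arhgef11. Within genotypes r was 0.87, 0.89 and 0.81. Opposed to Htt were Efemp2, an extracellular matrix gene (r = -0.84), and Cib1, a calcium-binding protein gene (r = -0.81), each with an adjusted permutation p of 0.0463. Their r within genotypes was -0.66 and -0.77. Spearman's rho was 0.79, 0.64 and 0.85 for the first 3 and -0.77 and -0.76 for Efemp2 and Cib1, and without the 2 mice farthest from the median of Htt r was 0.66, 0.67, 0.65, -0.70 and -0.83 in the same order. Exons of Ank2, Epg5 and Arhgef11 cover 35004, 10039 and 7951 bases, longer than 99.95%, 92.0% and 85.0% of tested genes, and those of Efemp2 and Cib1 cover 3788 and 2303 bases, longer than 49.2% and 25.5%. Exons of Htt cover 24438 bases. Over the 19 mice the length index had r = 0.64 with Htt (permutation p = 0.00389) and rho = 0.56 (permutation p = 0.0152), each 1 relation outside the gene-wise family. Without the 2 mice farthest from the median index, KI-96 replicates 3 and 4, r was 0.50, and within genotypes it was 0.76. The part of that index in the relations of Htt to other genes was not tested.

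Beyond the 7 partners, 88 other genes were taken from 7 lists of proteins that bind, modify or cleave HTT, that work with the partners, or that are paralogs of them. Of these, 87 were tested. None passed the adjusted threshold in edgeR in any comparison, higher or lower. With all KI mice set against WT mice, 10 of the 87 were higher and 8 lower at an unadjusted p under 0.05, 20.7% in all beside 12.9% of all tested genes (6.03% higher and 6.84% lower). In KI-571 mice 2 were higher and 8 lower, 11.5% beside 7.72% of all genes (3.89% higher and 3.83% lower). In KI-96 mice 7 were higher and 3 lower, 11.5% beside 7.45% (4.36% higher and 3.09% lower). In KI-FL mice 10 were higher and 9 lower, 21.8% beside 16.7% (7.89% higher and 8.84% lower). The median log2 fold change of the 87 genes was -0.038 in KI-571, 0.012 in KI-96 and 0.015 in KI-FL mice against WT mice.

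Clathrin and endocytosis genes, which act with Hip1, Hip1r, Pacsin1 and Sh3gl3, counted 19 tested members. Of these, 2 were higher and 2 lower at an unadjusted p under 0.05 in all KI mice against WT mice. Over all tested genes this share was 12.9% in either direction, for this and the other lists. The first by p was Ap2a2, a subunit of the AP-2 clathrin adaptor, at 154 ± 14.01 CPM in WT mice (SD, n = 7) and 186 ± 7.86 CPM in KI-FL mice (SD, n = 4), with a log2 fold change of 0.21 for all KI mice (edgeR adjusted p = 0.231). Of 12 tested transport and trafficking genes that act with Hap1, 1 was higher and 2 lower. Kif5b, a kinesin-1 heavy chain gene, had log2 fold changes of -0.21 for all KI mice (edgeR adjusted p = 0.343), -0.39 for KI-FL mice (edgeR adjusted p = 0.134) and -0.0082 for KI-96 mice (edgeR adjusted p = 0.993). Among the 10 paralogs of the partners 1 was higher and 1 lower, led by Trak1, which encodes a mitochondrial transport adaptor related to HAP1, with a log2 fold change of 0.18 (edgeR adjusted p = 0.315).

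Of 9 genes that act with Optn, 2 were higher and 1 lower by unadjusted p. In this comparison, all KI mice against WT mice, the share over all tested genes was 12.9% in either direction. Tbk1, the kinase that phosphorylates optineurin, was at 51.2 ± 3.40 CPM in WT mice (SD, n = 7) and at 45.1 ± 2.504, 44.6 ± 5.66 and 44.7 ± 2.13 CPM (SD, n = 4 each) in KI-96, in KI-571 and in KI-FL mice, with a log2 fold change of -0.19 for all KI mice (edgeR adjusted p = 0.216). Of 8 substrates of Zdhhc17, 1 was higher and none lower. That gene was Dlg4, which encodes PSD-95, with a log2 fold change of 0.22 for all KI mice (edgeR adjusted p = 0.363). Of 12 genes of nuclear proteins that bind HTT, 1 was higher and none lower, namely Ctbp1, a transcriptional corepressor gene, with a log2 fold change of 0.13 (edgeR adjusted p = 0.368). Among 17 genes of other proteins that bind, modify or cleave HTT, 2 were higher and 2 lower. Tgm2, which encodes a transglutaminase that cross-links glutamine residues, was at 6.97 ± 1.49 CPM in WT mice (SD, n = 7) and at 9.09 ± 1.99, 10.2 ± 1.25 and 9.84 ± 0.64 CPM (SD, n = 4 each) in KI-96, in KI-571 and in KI-FL mice. For all KI mice against WT mice it had a log2 fold change of 0.48 (standard error 0.13, edgeR adjusted p = 0.125), the smallest adjusted p of the 87 genes in that comparison, and the mice of WT and KI genotypes overlapped.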

How the data were processed

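Striatal RNA of 19 mice (7 WT and 4 of each KI genotype) was analysed, with genotype and replicate number from the labels, which give neither sex nor sacrifice batch. The authors deposited raw counts per gene, made by trimming with BBduk, alignment to GRCm38 with STAR and counting with HTSeq, whose versions and strand setting are not given in the sources used here. The labels give 7 WT samples, more than the study's methods state per genotype, and a WT sample that the study removed is not named, so all 7 were kept and taken as 7 mice. Nothing in the labels says more of the replicates than that they are separate samples, so p-values measure the spread between these samples, which may in part be technical, and mice of a genotype differed beyond sampling noise (chi-square per degree of freedom at least 8.59). The 4 columns of no mouse were not used, nor the 5 HTSeq summary lines, which held 20.8 to 32.8% of reads. Names and positions came from GENCODE mouse release 21 (GRCm38), which matched 54079 of 54232 identifiers, and sequences from its transcripts. One gene of the wider lists, Hgs, had 2 identifiers and was left out.

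Counts were filtered with filterByExpr (minimum count 10, minimum total 15), scaled by TMM and fitted with edgeR 4.0.16 in R 4.3.3 (genotype as the only term, all 19 mice, biological coefficient of variation 0.24). The quasi-likelihood test was adjusted by Benjamini-Hochberg over 18521 genes in each of 7 comparisons, with a threshold of 0.05. Log2 CPM (prior count 2) served for exact permutation tests and correlations, adjusted over all tested genes. The number of splits sets a lower limit on the exact p, which also limits its adjusted value. The study's DESeq2 model could not be repeated without the batch. Alternatives were DESeq2 1.42.0, its size factors, 2 other filters, only the groups compared, a replicate block, Xist or a surrogate variable (sva 3.50.0) as covariate, subsets of WT mice, each mouse left out, and prior count 0.5. WT replicates 5 to 7 only, the length index as covariate, and the removal of the mice named with it or with choroid plexus markers were chosen after seeing the data. On simulated counts of 18521 genes, all with the same spread, edgeR called 56.6% of 2-fold and 97.0% of 4-fold changes. Of the genes called there, 7.32% had not been changed. Changes under 2-fold, such as those estimated for the members, were not simulated. Members and lists were chosen with earlier results of these data known. Besides the members, genes were named where they passed the threshold in a wider list (none did), had the smallest p of a list in all KI mice against WT mice, lie nearest to Htt, or had the 3 highest or 3 lowest r with Htt, of which 1 is not reported here.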

Additional observations from a re-analysis of the deposited data

Results flagged for a closer look

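The length index of KI-571 replicate 1 was 0.954, against 0.667 to 0.683 in the other 3 KI-571 mice, and its distance from them passed Dixon's 95% limit. It was the KI-571 mouse with the most Htt (141 CPM), and without it Htt had a log2 fold change of -0.60 between KI-571 and WT mice (edgeR adjusted p = 0.0770). No member stood apart in this way in any genotype. Of 36 groups of values examined, 1 passed, where chance gives about 2.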

How the results depend on the processing

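No member passed the adjusted threshold in edgeR with all 19 mice, and none of the values that changed sign under an alternative had passed it. Htt was lower in KI-571 than in WT mice under every one of the 32 alternatives. Its log2 fold change (edgeR adjusted p unless DESeq2 is named) was -0.52 with DESeq2 (adjusted p = 0.00811), -0.54 without the filter on low counts (0.0229), -0.53 with only the groups compared (0.0282), -0.48 with the length index as covariate (0.0271) and -0.53 without KI-96 replicate 3 and KI-FL replicate 4 (0.0182), so that 1 member was called in each. Over all genes, DESeq2 called 115 of 18521 in this comparison and edgeR without the filter 78 of 36846. With the filter and all 19 mice edgeR called 6 of 18521. For the other settings no such count is given here. Leaving out each mouse in turn gave -0.60 to -0.45 for Htt and 0 to 1 members called, with the call made only without KI-96 replicate 3 (-0.53, adjusted p = 0.0325). Against WT replicates 1 to 4 only the value was -0.56 (adjusted p = 0.463) and against WT replicates 5 to 7 only -0.48 (0.291). Between KI-96 and KI-571 mice 1 member, Htt, was called with DESeq2 and without the filter. Over all genes these settings called 35 of 18521 and 35 of 36846 there, against 1 of 18521 in edgeR with the filter and all 19 mice. DESeq2 called 28 of all genes in KI-96, 115 in KI-571 and 509 in KI-FL mice against WT mice, where edgeR called 5, 6 and 36. Without the filter on low counts edgeR called 23, 78 and 85, against WT replicates 1 to 4 only 0 in each, and the cause was not tested.

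The replicate numbers did not pair the mice, since same-numbered mice of different genotypes had correlations of -0.13 to 0.29 (median -0.0048, 24 pairs). With a replicate block the log2 fold change of Htt was -0.57 in KI-571 mice (edgeR adjusted p = 0.282), and 0 genes were called in KI-96, 1 in KI-571 and 0 in KI-FL mice. With the replicate block Hap1 in KI-96 mice (0.027) and Hip1r in KI-571 mice (0.013) changed sign against WT mice, as they did against WT replicates 1 to 4 only (0.025 and 0.015).

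The other changes of sign were of values that had not passed the threshold, the 2 farthest from 0 being Sh3gl3 in KI-96 against KI-FL (-0.22 with all mice) and against WT (-0.17), and the cause was not tested. With the length index as covariate they were Htt (-0.057) and Pacsin1 (0.0023) in KI-96 against WT and Hip1 (-0.0048) in KI-96 against KI-FL. Without KI-96 replicate 3 and KI-FL replicate 4 they were Htt (-0.091) and Pacsin1 (0.0028) in KI-96 against WT, Hap1 (-0.068) and Sh3gl3 (-0.11) in KI-FL against WT, Hip1r (-0.012) in all KI against WT, Hip1 (-0.039) and Sh3gl3 (0.031) in KI-96 against KI-FL, Sh3gl3 (0.041) in KI-96 against KI-571 and Optn (-0.19) in KI-571 against KI-FL. Without KI-571 replicates 2 and 4 and KI-FL replicate 1 they were Hip1 (0.017) in KI-571 against KI-FL, Hip1r (0.068) in KI-571 against WT and Pacsin1 (-0.016) in KI-96 against KI-FL. Against WT replicates 5 to 7 only they were Hap1 (-0.052), Pacsin1 (0.067) and Sh3gl3 (-0.018) in KI-FL, Pacsin1 (0.068) and Optn (-0.010) in KI-96, and Hip1r (-0.072) and Pacsin1 (0.044) in all KI mice. With log2 CPM of Xist as covariate they were Hip1 (-0.021), Pacsin1 (-0.017) and Zdhhc17 (-0.033) in KI-96 against KI-FL, Hip1 (0.022), Hip1r (-0.0031) and Zdhhc17 (0.016) in KI-571 against KI-FL, Hip1 (-0.043), Zdhhc17 (-0.049) and Sh3gl3 (0.18) in KI-96 against KI-571, and Sh3gl3 in KI-96 (0.052) and all KI mice (0.0018) against WT. With 1 surrogate variable they were Sh3gl3 in KI-FL against WT (-0.084) and Optn in KI-571 against KI-FL (-0.17). Zdhhc17 in KI-571 against KI-FL was 0.0097 with DESeq2, 0.0093 with its size factors (both in edgeR and as a difference of log2 CPM), 0.0070 without the filter and 0.0061 with at least 10 counts in every mouse, and Hip1r in all KI against WT was -0.0065 without the filter. Pacsin1 in KI-96 against KI-FL was 0.011 as a difference of log2 CPM with DESeq2 size factors.

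Leaving out each mouse in turn gave, against WT, -0.091 to 0.16 for Htt, -0.15 to 0.037 for Hap1, -0.11 to 0.013 for Pacsin1 and -0.043 to 0.067 for Optn in KI-96 mice, -0.15 to 0.034 for Hip1r in KI-571 mice, -0.092 to 0.21 for Hap1, -0.11 to 0.0035 for Pacsin1 and -0.11 to 0.14 for Sh3gl3 in KI-FL mice, and -0.022 to 0.045 for Hip1r in all KI mice. Against KI-FL it gave -0.27 to 0.032 for Hap1 and -0.054 to 0.072 for Pacsin1 in KI-96 mice, and -0.081 to 0.071 for Hip1, -0.054 to 0.11 for Hip1r, -0.16 to 0.0019 for Pacsin1, -0.061 to 0.040 for Zdhhc17 and -0.19 to 0.41 for Optn in KI-571 mice. For Sh3gl3 in KI-96 against KI-571 it gave -0.13 to 0.041. The r with Htt ranged from -0.33 to 0.25 for Sh3gl3 and from -0.10 to 0.32 for Pacsin1. It was -0.022 for Hap1 and -0.14 for Pacsin1 within genotypes, and -0.21 for Hip1 without the 2 mice farthest from the median of Htt.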
